A study of Mus musculus with 4 samples.

Results

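The genes described here lie on mouse chromosome 14 beyond 40 Mb. A gene was taken where its smallest start position was above 40000000 in mm10 and its mean over 4 tumours was 5 CPM or more, CPM being counts scaled to a common library total. Of 46946 genes in the deposited count table, 1280 lay beyond this position, 698 of them with no count in any library, and 286 reached the level. At the same level stood 12041 genes in all, among them 122 on the rest of chromosome 14 and 11633 on other chromosomes. Of the 286 genes 283 were protein-coding in GENCODE vM21. The region was chosen by the measured counts themselves, since its genes were low in the library TUN, and the level limit uses the same counts. Ratios of TUN are therefore given as a description, with no test.

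RNA came from 4 untreated mouse tumours that form a single group, PDGFB K27M. The labels trace them to neural stem cells carrying PDGF and K27M, a change of histone H3 that interferes with the lysine methylation made by PRC2. The series text instead names DIPG cells, from a glioma of the pons in children, as what was injected, with the change in H3.3. The table does not settle which holds. PolyA RNA was sequenced with a kit that does not mark strand. The libraries are called TUN, T14, T10 and T8 as in the table. These names match no sample title one to one, and what TUN stands for is not given in the sources used here. All 4 share genotype and lack of treatment, and nothing in the labels sets TUN apart. Strain, age and host are not stated. Other genotypes and normal brain were not analysed here, and nothing says whether the tumours grew from separate cultures.

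Mouse chromosome 14 carries Rb1, whose protein binds E2F factors and holds back entry into S phase until cyclin D and CDK4 or CDK6 phosphorylate it. The chromosome also carries Ednrb, the endothelin receptor of glial and neural crest cells, Spry2, a brake on receptor tyrosine kinase signalling, and Lats2, a kinase of the Hippo pathway. For many genes the amount of RNA tends to follow the number of gene copies. DNA was not measured here, and read counts do not give copy number. In bulk tissue, fewer cells of a type and less RNA per cell cannot be told apart.

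The promoters of 3 members that differ in their number of CG dinucleotides, the sites of DNA methylation in mammals, are shown as examples. They run from 250 bases before to 50 after the gene start in RefSeq (GRCm38.p6, minus strand for Ednrb and Ndrg2, plus strand for Ipo5), with each CG in capitals, and were chosen after their values were seen. Ipo5 encodes a nuclear import receptor, Ednrb a receptor of endothelins, and Ndrg2 a growth-restraining protein of astrocytes. They lie at chr14:120910944-120911243, chr14:103843652-103843951 and chr14:51913955-51914254.
Ipo5: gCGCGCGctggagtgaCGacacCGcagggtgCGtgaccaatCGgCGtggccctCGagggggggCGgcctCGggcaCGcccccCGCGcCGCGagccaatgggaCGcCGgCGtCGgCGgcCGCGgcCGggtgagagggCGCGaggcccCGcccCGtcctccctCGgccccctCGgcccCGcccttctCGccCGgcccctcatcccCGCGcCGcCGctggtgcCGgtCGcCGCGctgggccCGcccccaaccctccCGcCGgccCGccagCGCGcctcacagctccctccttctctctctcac
Ednrb: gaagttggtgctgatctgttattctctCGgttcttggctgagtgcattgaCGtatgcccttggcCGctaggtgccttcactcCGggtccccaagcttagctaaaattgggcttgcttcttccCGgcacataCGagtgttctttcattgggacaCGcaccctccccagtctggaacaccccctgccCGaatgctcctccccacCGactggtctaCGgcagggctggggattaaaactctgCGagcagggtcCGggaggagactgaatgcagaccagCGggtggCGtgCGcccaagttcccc
Ndrg2: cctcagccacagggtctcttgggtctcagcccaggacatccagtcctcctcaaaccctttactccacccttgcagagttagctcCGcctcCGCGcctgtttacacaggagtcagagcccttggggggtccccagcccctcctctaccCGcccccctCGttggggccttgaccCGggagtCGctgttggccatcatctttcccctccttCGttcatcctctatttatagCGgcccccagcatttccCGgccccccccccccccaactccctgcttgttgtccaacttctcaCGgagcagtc

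These stretches held 47 CG in Ipo5, 15 in Ednrb and 11 in Ndrg2. Ipo5 had 280 CPM in TUN, against 273 in T14, 295 in T10 and 476 in T8. Ednrb had 414 CPM in TUN, against 666 in T14, 692 in T10 and 771 in T8. Ndrg2 had 238 CPM in TUN, against 957 in T14, 577 in T10 and 218 in T8. TUN was thus the lowest library for Ednrb only. RefSeq promoters were matched for 200 members by symbol, and the first listed start was used. The median number of CG was 21.5 in members and 7 over all 27025 promoters, and 55.5% of members against 26.8% of all promoters held 20 or more. Members had to be expressed to enter and the other promoters did not, and a comparison with expressed genes elsewhere was not made. Among the 111 members with 20 or more CG the median log2 ratio of TUN to T8 was -0.61. It was -0.61 in the 61 members with 10 to 19 CG and -0.53 in the 28 with fewer. Against the median of the other 3 libraries the order was the opposite, with -0.52 at 20 or more CG, -0.65 at 10 to 19 and -0.75 below. A part of promoter CG or its methylation in these ratios was not tested.

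RNA of the region was lower in TUN than in each of the other tumours. Over the 286 genes the median log2 ratio of TUN was -0.62 to T14, -0.59 to T10 and -0.61 to T8, folds of 0.653, 0.664 and 0.655. On the 122 genes of chromosome 14 not beyond 40 Mb the same medians were -0.03, -0.04 and 0.00, and on the other chromosomes 0.02, 0.03 and 0.00. Against the median of the other 3 libraries, the measure used below unless T8 is named, the members had a median log2 ratio of -0.61, all 12041 genes at this level 0.01 and genes of other chromosomes 0.02. The medians of the 19 other chromosomes ran from -0.07 to 0.06. The members took 1.47% of all counts in TUN, against 2.34% in T14, 2.23% in T10 and 2.16% in T8.

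TUN was the lowest of the 4 libraries for 218 of the 286 genes (76.2%), where it was lowest for 24.6% of all genes at this level. T14 was lowest for 25 members, T10 for 25 and T8 for 18. A log2 ratio of -0.5 or less was reached by 173 members (60.5%), against 18.0% of all genes, and one of 0.5 or more by 12 members (4.2%), against 12.2%. Set against T8 alone, 185 members (64.7%) had a log2 ratio of -0.5 or less, where 7.67% of all genes did, and 5 (1.75%) had one of 0.5 or more, where 7.19% did. TUN was below T8 by any amount for 259 members (90.6%), where 51.2% of all genes were. These shares describe 1 library that was singled out from its values.

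**Figure D1:**
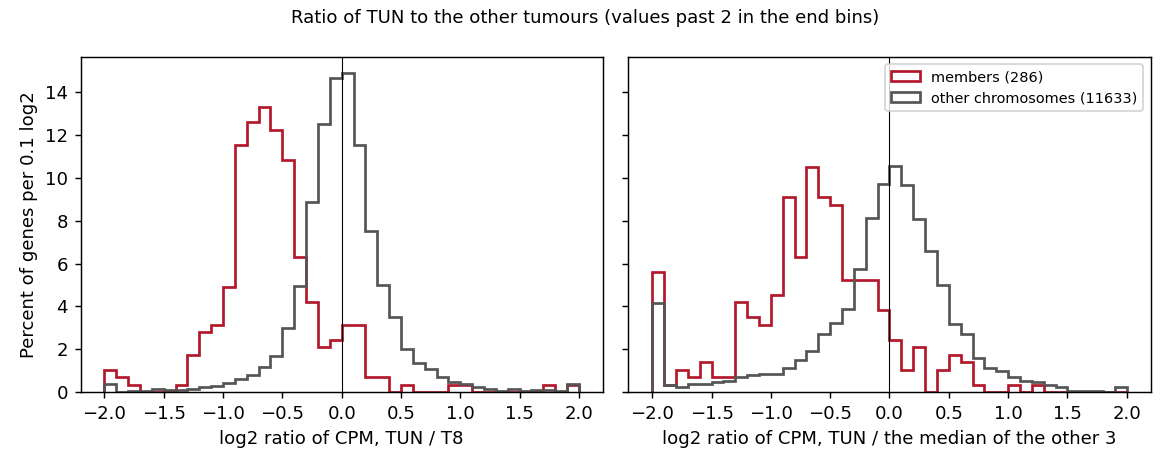
Share of genes (percent per 0.1 log2 step, y axis) by log2 ratio of CPM in TUN to T8 (left) and to the median of the other 3 libraries (right), for the 286 members in red and 11633 genes of other chromosomes in grey. The members peak left of 0, with medians of -0.61 in both panels, against 0.00 and 0.02 for the other chromosomes.

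Ratios to T8 spread less than ratios to the other libraries. The members lay between -0.82 and -0.41 against T8 from the lower to the upper quartile, and between -0.93 and -0.29 against the median of the other 3. Genes of other chromosomes lay between -0.18 and 0.18 and between -0.28 and 0.29 on the same measures. A total of 96 members had a log2 ratio to T8 between -0.75 and -0.5 and 60 one between -1 and -0.75, while 29 were at -1 or below. Of the marker genes fixed for other cell types, 9 neuron markers summed to 1112 CPM in TUN, against 3981 in T14, 3361 in T10 and 1132 in T8. The 6 astrocyte markers summed to 1994 CPM in TUN, against 6607, 4221 and 2129 in T14, T10 and T8, and 6 mature oligodendrocyte markers to 872, against 3634, 4883 and 917. Markers of oligodendrocyte precursors (5 genes) summed to 7782, against 5848, 6797 and 10141 CPM. Mitosis markers (6 genes) summed to 1410 CPM in TUN, against 605, 626 and 1088, and macrophage and microglia markers (7 genes) to 1465, against 604, 424 and 752. Endothelial markers (4 genes) summed to 166 CPM, against 155, 130 and 170, and erythroid markers (3 genes) to 4.51, against 71.5, 9.65 and 8.55. No marker was at 0 in all libraries. T8 was the nearest library to TUN in all of these sums except that of the precursors, where T10 was nearest. The part of these cell types in the ratios of single members was not tested.

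Along the chromosome the lower level in TUN spanned the whole stretch. In windows of 10 Mb, the median log2 ratio to T8 was 0.09 (10 genes), 0.05 (21), -0.07 (46) and 0.00 (45) up to 40 Mb. Beyond it the medians were -0.60 from 40 to 50 Mb (28 genes), -0.60 from 50 to 60 Mb (94), -0.64 from 60 to 70 Mb (55) and -0.63 from 70 to 80 Mb (52). The gene-poor windows from 80 to 100 Mb held 4 and 7 members with medians of -0.52 and -0.43. From 100 Mb to the end the medians were -0.62 (15 genes), -0.51 (13) and -0.70 (18). TUN was the lowest library for 23 of 28 members in the first window and for 16 of 18 in the last. It was so for 76.2% of all members and 24.6% of all genes.

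**Figure D2:**
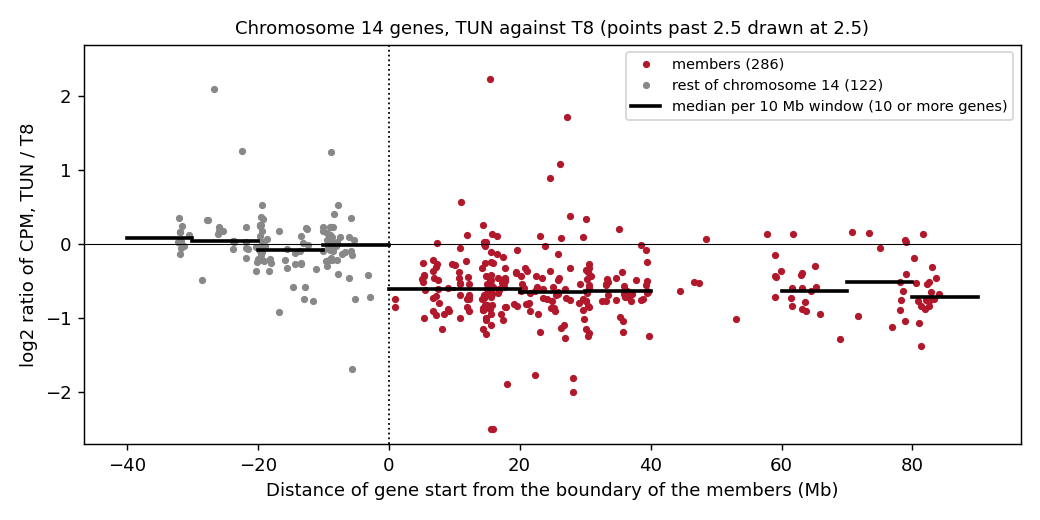
Log2 ratio of CPM in TUN to T8 (y axis) for each gene of chromosome 14 at mean CPM 5 or more, by distance of its start from the boundary in Mb (x axis), members in red and the rest of the chromosome in grey; black bars are medians of the 10 Mb windows with 10 or more genes. These bars lie between -0.07 and 0.09 left of the boundary and between -0.70 and -0.51 right of it.

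The boundary at 40 Mb is a round number, and low values in TUN began before it. The 3 members with the smallest starts were Tspan14 (40906445 to 40966807), Fam213a and Txndc16. Tspan14, a tetraspanin gene, had 38.7 CPM in TUN, against 42.8 in T14, 41.2 in T10 and 64.5 in T8. Fam213a, a gene of a peroxiredoxin-like protein, had 45.6 CPM in TUN, against 166, 107 and 82.3 in T14, T10 and T8. Txndc16, a thioredoxin domain gene, had 108 CPM in TUN, against 177, 176 and 149. TUN was the lowest library for all 3.

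The 3 nearest genes outside the boundary were also lowest in TUN. Grid1 (34819825 to 35583379), a glutamate receptor delta gene, had 61.3 CPM in TUN, against 103 in T14, 110 in T10 and 102 in T8. Ccser2 (36874936 to 36968777) had 82.5 CPM in TUN, against 174, 187 and 110. Ghitm (37120444 to 37135322), a gene of the inner mitochondrial membrane, had 125 CPM in TUN, against 456, 402 and 205. Wapl and Bmpr1a, the next expressed genes before Grid1, were named after their values were seen. Wapl (34673928 to 34747983), which releases cohesin from chromosomes, had 120 CPM in TUN, against 120, 115 and 116. Bmpr1a (34410734 to 34503341), a BMP receptor gene, had 202 CPM in TUN, against 175, 194 and 223. Sncg and Glud1, the next before these and also named after their values were seen, were again lowest in TUN. Sncg had 0.58 CPM in TUN, against 7.41, 17.9 and 2.05, and Glud1 had 267, against 336, 326 and 285. Shld2 and Zfp488, next in turn, were highest in TUN. These genes do not fix where the low level begins. At the level limit the members with the lowest means were Rec8, Itgbl1 and Ebf2, and the highest below it were Adcy4, Rem2 and Dleu2. Dleu2 had 3.97 CPM in TUN, against 6.79, 5.13 and 3.94.

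Rb1 (ENSMUSG00000022105.6, 73183673 to 73325822, minus strand) was lowest in TUN. It had 974 counts or 43.5 CPM in TUN, against 56.6 CPM in T14, 64.4 in T10 and 73.7 in T8, and the libraries TUN and T8 stood at the ends of the range. The log2 ratio of TUN was -0.38 to T14, -0.57 to T10 and -0.76 to T8. The fold to T8 was 0.591, with an exact 95% interval of 0.545 to 0.639 that covers counting error only. The members as a whole had a median fold to T8 of 0.655. Exons of Rb1 overlap those of Lpar6, which sits inside it, and of its neighbour Rcbtb2, so some reads could not be told apart. In edgeR, Rb1 was not more variable than genes of like abundance (Benjamini-Hochberg adjusted p = 1), a test that in simulations recovered 0% of genes changed 2-fold in TUN.

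The genes listed for growth control and tumour suppression, Rb1 among them, were lower in TUN to much the same extent as all members. Of the 20 listed, 14 were members, and the others were below the level, among them Dleu2, Dok2, Tnfrsf10b, Ajuba and Klf5. TUN was lowest for 11 of the 14 and below T8 for 13, and 10 had a log2 ratio to T8 of -0.5 or less (median -0.62, and -0.53 to the median of the other 3). Over all 286 members the same medians were -0.61 and -0.61. TUN was lowest for 76.2% of all members, below T8 for 90.6% and at -0.5 or less to T8 for 64.7%. Over all 12041 genes at this level the shares were 24.6%, 51.2% and 7.67%.

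Spry2, which dampens signalling from FGF and PDGF receptors, had 153 CPM in TUN, against 214 in T14, 211 in T10 and 294 in T8. Rhobtb2, a cullin adaptor, had 74.1 CPM in TUN, against 127, 102 and 149. Chd8, a chromatin remodeller that restrains beta-catenin, had 66.3 CPM in TUN, against 114, 127 and 107. TUN lay below the range of the other libraries for each of these. Bnip3l, a receptor for removal of mitochondria, had 68.6 CPM in TUN, against 119, 103 and 104. Rcbtb2, a neighbour of Rb1 that shares exon bases with it, had 58.9 CPM in TUN, against 64.7, 64.4 and 85.3. Lats2 had 26.5 CPM in TUN, against 80.4, 49 and 39.4, although its exons overlap those of Xpo4. Trim13, a ubiquitin ligase, had 4.87 CPM in TUN, against 7.37, 7.08 and 7.71. Among the DNA repair genes of the list, Parp2 had 23.8 CPM in TUN, against 25.7, 27.7 and 30.8. Apex1 had 13.3 CPM in TUN, against 13.5, 16.9 and 26.6, and its exons overlap those of Pip4p1. In these 2 the gap from TUN to the next library was small. The genes not lowest in TUN were Ndrg2, Bin3 and Rnaseh2b. Ndrg2 had the least in T8, Bin3 stood at 13.4 CPM in TUN against 10.7, 11.2 and 17.2, and Rnaseh2b at 35.7 CPM in TUN against 26.3, 36.5 and 55.3.

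**Figure D3:**
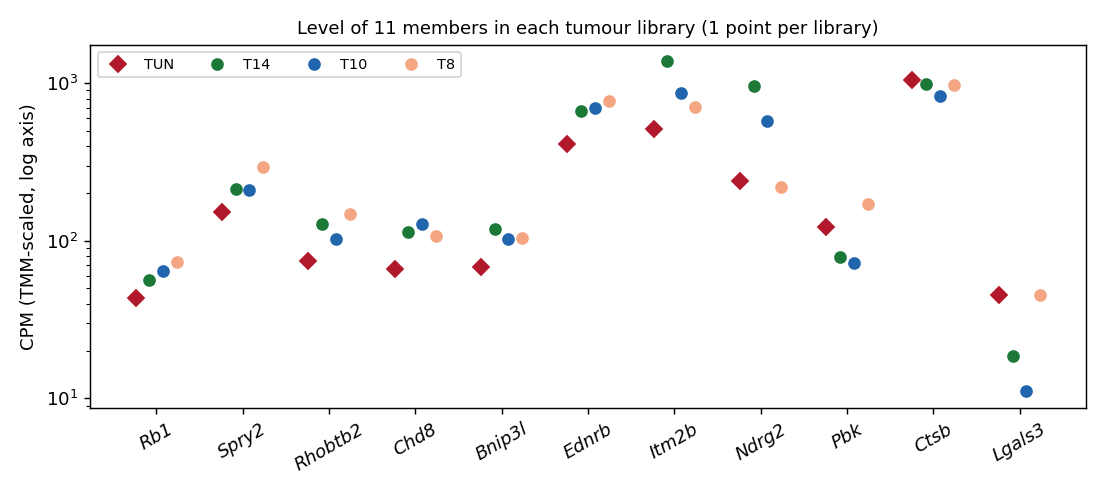
Level in CPM (log axis) of 11 members in each library, with TUN as diamonds and T14, T10 and T8 as circles, 1 point per library. For Rb1 to Itm2b the diamond is the lowest point, while for Ctsb and Lgals3 it is the highest.

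The rest of the RB pathway lies on other chromosomes and did not share the low level. All 27 genes of this list, Rb1 included, were at mean CPM 5 or more. TUN was the lowest library for 2 of them, Rb1 and the cyclin gene Ccnd2, and the highest for 12. Of all genes, 24.6% were lowest and 24.8% highest in TUN. The median log2 ratio was 0.05 to T8 and 0.61 to the median of the other 3. Ccnd2 had 493 CPM in TUN, against 777 in T14, 1226 in T10 and 1273 in T8. Rbl1, a pocket protein related to RB, had 77.2 CPM in TUN, against 30.7, 42.7 and 58.4. Rbl2, the other pocket protein, had 82.1 CPM in TUN, against 97.9, 86 and 63.9. Cdk4 had 490 CPM in TUN, against 247, 269 and 533, and Cdkn2a had 23.8, against 14.2, 7.9 and 15.3. The cyclin gene Ccnd1 had 3039 CPM in TUN, against 2353, 2214 and 3279, and Ccnd3 had 187, against 146, 138 and 219. The inhibitor gene Cdkn2c had 177 CPM in TUN, against 95.2, 82.4 and 153, and Cdkn1b had 207, against 256, 173 and 204. For the D cyclins other than Ccnd2, TUN and T8 were the higher pair of libraries.

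TUN was the lowest library for 6 of the 10 members with the highest mean CPM, against 76.2% of all members and 24.6% of all genes. These were Itm2b, Ednrb, Slc22a17, Clu, Tsc22d1 and Gmfb, while Ctsb was highest in TUN and Ndrg2, Ipo5 and Fermt2 were lowest in another library. Itm2b, a membrane protein gene of brain, had 512 CPM in TUN, against 1381 in T14, 861 in T10 and 706 in T8. Slc22a17 had 278 CPM in TUN, against 587, 682 and 498. Tsc22d1, a transcription regulator, had 309 CPM in TUN, against 480, 484 and 480. The 3 other libraries lay within 4 CPM of each other for Tsc22d1, and TUN stood far below them. Clu, the clusterin gene of astrocytes, had 261 CPM in TUN, against 682, 523 and 359. Gmfb, a glia maturation factor, had 250 CPM in TUN, against 377, 364 and 414. Fermt2, an integrin adaptor, had 263 CPM in TUN, against 259, 309 and 349, and here T14 was lower. Split by mean level into 3 sets, the members had a median log2 ratio to T8 of -0.49 in the lowest set (96 genes), -0.61 in the middle (95) and -0.72 in the highest (95). Against the median of the other 3 the medians were closer, at -0.59, -0.61 and -0.64. TUN was lowest for 61, 75 and 82 of them.

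Glia and neural progenitor genes were among the lowest against T14 and T10. Of 19 listed, 16 were members, and TUN was lowest for 13 and below T8 for 14. It was so for 76.2% and 90.6% of all members, and for 24.6% and 51.2% of all genes. The median log2 ratio of the list was -0.54 to T8 and -0.84 to the median of the other 3. Gpc6, a glypican, had 34.4 CPM in TUN, against 50.2 in T14, 59.1 in T10 and 74.4 in T8. Sox21, a factor that promotes differentiation of neural progenitors, had 32.2 CPM in TUN, against 52, 58.5 and 54.4. Fzd3, a Wnt receptor, had 21.2 CPM in TUN, against 35.8, 38.1 and 38.6. Zic2, a patterning factor, had 20.6 CPM in TUN, against 165, 45.5 and 35. Gjb6, the astrocyte connexin 30, had 2.86 CPM in TUN, against 91.3, 44.5 and 5.57. T14 was the highest library for Zic2 and Gjb6, as it was for the summed astrocyte markers. Cldn10 (2.37 CPM in TUN, against 19.4, 16.5 and 2.26) and Dach1 (4.64 CPM in TUN, against 20.4, 19.3 and 4.19) were level between TUN and T8. Mbnl2, a splicing regulator, had 85.6 CPM in TUN, against 210, 189 and 97.4. Bmp1, a protease of the matrix, had 137 CPM in TUN, against 119, 116 and 179, and was the listed gene at or above the median of the other 3.

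Most neuron genes of the region were lower in TUN and, for many, in T8. Of 26 listed, 22 were members, and TUN was lowest for 18 and below T8 for 19. It was so for 76.2% and 90.6% of all members, and for 24.6% and 51.2% of all genes. The median log2 ratio of the list was -0.75 to T8 and -1.25 to the median of the other 3. Neuron markers of the whole genome, 9 genes, had medians of -0.46 and -2.95 on the same measures. Nefl, a neurofilament gene, had 10 CPM in TUN, against 145 in T14, 305 in T10 and 40.4 in T8. Nefm, its neighbour and partner, had 16.8 CPM in TUN, against 161, 348 and 58.7, and exons of the 2 genes overlap. Phyhip had 5.36 CPM in TUN, against 348, 81.6 and 9.6. Cbln3, a cerebellin gene of cerebellar granule cells, had 8 counts in TUN (0.357 CPM), against 747, 99.9 and 6.16 CPM. Dpysl2, which guides axon growth, had 67.8 CPM in TUN, against 133, 155 and 145. Farp1 had 172 CPM in TUN, against 203, 267 and 359. Pcdh9 and Pcdh17, protocadherin genes, had 63.3 and 114 CPM in TUN, against 150 and 177 in T14, 173 and 209 in T10, and 127 and 177 in T8. Stmn4 (35.9 CPM in TUN, against 85.4, 78.6 and 33.7) was level with T8. Ptk2b, the listed gene highest in TUN, had 13.9 CPM in TUN, against 6.79, 5.17 and 6.49. Egr3 had 14.4 CPM in TUN, against 6.08, 12.3 and 24.6, and lay above the median of the other 3.

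Protein and RNA handling genes, which most cells express, sat close to the median of the region against T8. All 32 listed were members, and TUN was lowest for 23 and below T8 for 30. It was so for 76.2% and 90.6% of all members, and for 24.6% and 51.2% of all genes. The median log2 ratio of the list was -0.65 to T8 and -0.43 to the median of the other 3. Ktn1, a kinesin receptor of the endoplasmic reticulum, had 107 CPM in TUN, against 191 in T14, 195 in T10 and 185 in T8. Xpo7, a nuclear export receptor, had 91.5 CPM in TUN, against 141, 134 and 139. Prmt5, an arginine methyltransferase, had 84.8 CPM in TUN, against 96.1, 99.7 and 155. Tm9sf2 had 155 CPM in TUN, against 215, 202 and 259, and Mycbp2, a ubiquitin ligase of axons, had 61, against 191, 239 and 112. Psmb5, a proteasome subunit, had 22.9 CPM in TUN, against 27.5, 23 and 37.9. TUN and T10 were level for Psmb5. Tpt1 had 217 CPM in TUN, against 180, 233 and 492, and Hnrnpc had 220, against 230, 185 and 297. Processed copies of both genes in the genome can share their reads, so their levels are uncertain. Uggt2 and Pabpn1 were the 2 genes of the list not below T8.

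Genes of the region listed for cell division stood differently against T8 and against the other tumours. Of 16 listed, 15 were members. TUN was below T8 for all 15 (median log2 ratio -0.31), while it was at or above the median of the other 3 for 9 of them (median 0.09) and lowest for 4. Over all members these shares were 90.6%, 10.8% and 76.2%, and over all genes 51.2%, 51.2% and 24.6%. Mitosis markers of other chromosomes, 6 genes, were all highest in TUN, with medians of 0.38 to T8 and 1.27 to the median of the other 3. Pbk, a mitotic kinase, had 123 CPM in TUN, against 79.5 in T14, 72.1 in T10 and 172 in T8. Dlgap5, a spindle protein gene, had 31.9 CPM in TUN, against 21.5, 20.2 and 38.1. Cdca2, a partner of phosphatase 1 on chromosomes, had 32.9 CPM in TUN, against 24.8, 23.2 and 40.9. Esco2, which acetylates cohesin, had 28 CPM in TUN, against 21, 18.4 and 30.7. Bora, an activator of Aurora A, had 22.3 CPM in TUN, against 13.3, 18.2 and 24.6. For these 5 genes T8 was the highest library and TUN the next. Cdkn3 (8.39 CPM in TUN, against 3.6, 5.09 and 9.76) and Ska3 (22.7 CPM in TUN, against 14.6, 13.9 and 28.2), a gene outside the list, had the same order of TUN below T8. Mzt1, a part of the gamma-tubulin complex, had 53.3 CPM in TUN, against 81.5, 87.1 and 86.9, and was lowest in TUN. Supt16, a histone chaperone subunit whose exons overlap Rpgrip1, had 87.8 CPM in TUN, against 117, 126 and 145. Slain1, a microtubule protein gene, had 36.2 CPM in TUN, against 71.5, 73.9 and 62.1. Cnih1, a cargo receptor gene, had 66.7 CPM in TUN, against 83.4, 81.9 and 125. These 4 were the listed genes lowest in TUN, though Supt16 and Cnih1 are not particular to cell division. Wdhd1, a replication factor, had 34.5 CPM in TUN, against 22.2, 34.5 and 42.5.

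**Figure D4:**
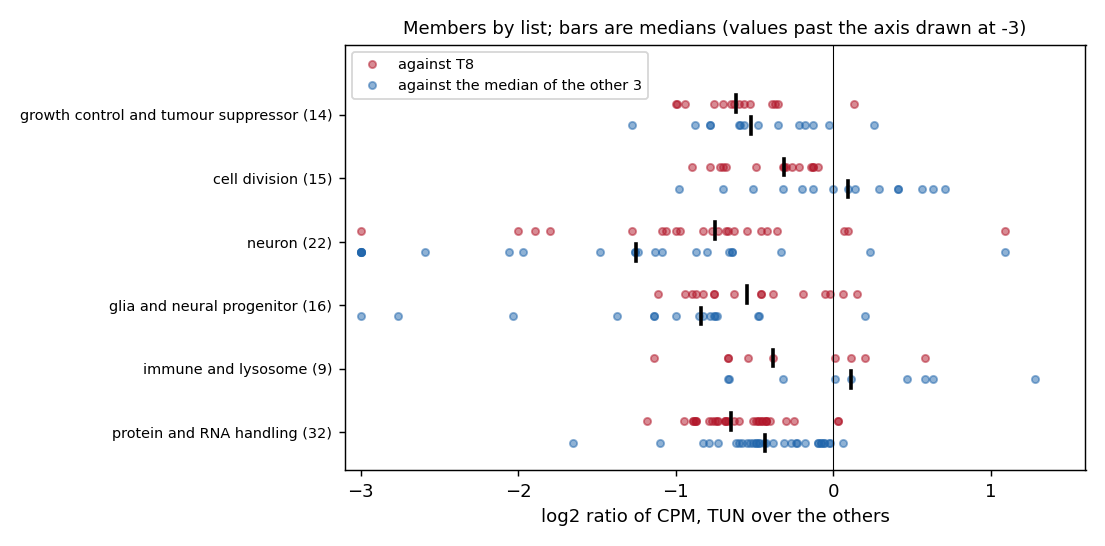
Log2 ratio of CPM (x axis) in TUN to T8 (red) and to the median of the other 3 libraries (blue) for the members of 6 gene lists (y axis, number of genes in brackets); each point is a gene and black bars are medians. Against T8 all 6 medians lie between -0.75 and -0.31, while against the other 3 those of cell division (0.09) and immune and lysosome genes (0.11) lie above 0.

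Only 10 members (3.5%) were at or above both T8 and the median of the other 3, where 33.1% of all genes were. They were Lgals3, Ptk2b, Loxl2, Lcp1, Rnase4, Slc7a7, 4931414P19Rik, Lmo7, Ctsb and Cdh24. TUN was the highest library for 8 members, all of these save Lmo7 and Cdh24. The exact 95% counting interval of the fold to T8 included equal levels for Lgals3 (0.926 to 1.1), Loxl2 (0.951 to 1.2) and 4931414P19Rik (0.812 to 1.24). It also did for Lmo7 (0.886 to 1.38) and Cdh24 (0.813 to 1.28). It began at 1.0 for Slc7a7 and lay above equal levels for Ctsb, Lcp1, Rnase4 and Ptk2b. Lgals3, the galectin 3 gene of macrophages and other cells, had 45.5 CPM in TUN, against 18.7 in T14, 11.1 in T10 and 45 in T8. Ptk2b, a focal adhesion kinase found in neurons and macrophages and listed here with the neuron genes, had 13.9 CPM in TUN, against 6.79, 5.17 and 6.49. Its fold to T8 was 2.12, with an exact 95% counting interval of 1.76 to 2.61. Lcp1, the plastin of leukocytes, had 46.3 CPM in TUN, against 29.8, 27.7 and 40.2. Ctsb, a lysosomal protease, had 1048 CPM in TUN, against 982, 826 and 971, so the 4 libraries lay close together. Rnase4 had 28 CPM in TUN, against 25.9, 18.7 and 18.7, and its exons overlap those of Ang. Slc7a7 had 11.8 CPM in TUN, against 7.99, 6.43 and 9.85, with exons overlapping Oxa1l. Loxl2, a lysyl oxidase, had 26.5 CPM in TUN, against 16.3, 16.8 and 24.8. The 5 members at a log2 ratio to T8 of 0.5 or more were Ptk2b, Rnase4, Cpne6, Ebf2 and Mir124a-1hg, of which only Ptk2b and Rnase4 were highest in TUN. Cpne6, a copine of neurons named after its values were seen, had 4.64 CPM in TUN, against 5.15, 12.7 and 0.922. Ebf2, a transcription factor of neurons and fat, had 2.55 CPM in TUN, against 9.77, 7.57 and 0.712.

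The list of immune and lysosome genes held 4 of these 10. Of 18 listed, 9 were members, TUN was highest for 4, Ctsb, Lcp1, Lgals3 and Rnase4, and lowest for 2. Over all 286 members TUN was highest for 2.8% and lowest for 76.2%, and over all 12041 genes for 24.8% and 24.6%. The median log2 ratio was 0.11 to the median of the other 3 and -0.38 to T8. The macrophage and microglia markers of other chromosomes were highest in TUN for 6 of 7 genes, with a summed level of 1465 CPM in TUN, against 424 to 752 CPM in the other libraries. Mmp14, a membrane matrix protease, had 61.1 CPM in TUN, against 44.1 in T14, 33.3 in T10 and 135 in T8. Irf9, a factor of interferon signalling, had 11 CPM in TUN, against 17.5, 16.1 and 17.6, and its exons overlap those of Rnf31. Scara3 had 20.9 CPM in TUN, against 18.4, 35.2 and 33.3.

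The lowest ratios to the median of the other 3 came from genes that were high in T14 and T10 and low in both T8 and TUN. Besides the neurofilament genes, Phyhip, Cbln3, Gjb6 and Cldn10, they were Fgf9, Dmtn, Mir124a-1hg and Rec8. Fgf9, a growth factor gene, had 8 counts in TUN (0.357 CPM), against 18.2, 12.9 and 1.55 CPM. Dmtn had 6.3 CPM in TUN, against 55, 69.9 and 11.4. Mir124a-1hg, host gene of a neuronal microRNA, had 1.25 CPM in TUN, against 49.1, 16.9 and 0.628. Fgf9, Mir124a-1hg and Cldn10 were below 5 CPM in T8 and TUN and reached the level limit only through T14 and T10. Their order was thus partly fixed by that limit. Rec8, the meiotic cohesin gene, followed another order. It had 1 count in TUN, against 21 in T14, 5 in T10 and 516 in T8, and was high in T8 alone.

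By the residual deviance of the edgeR fit, tested for 14266 genes that passed the filter on low counts, 13 of 283 tested members were more variable than genes of like abundance (4.59%), where 4.34% of all genes were. The 3 members not tested were too low in a library for the filter. T14 and T10 were the 2 highest libraries for all 13, and TUN was lowest for 8 (76.2% of all members and 24.6% of all genes were lowest in TUN). The same shares over all called genes were not taken, so this order is not shown to be particular to the region. Summed markers of neurons, astrocytes and mature oligodendrocytes were also highest in T14 and T10. The 5 smallest adjusted p-values in edgeR were those of Phyhip (2.46e-16), Mir124a-1hg (9.96e-10), Gjb6 (7.95e-09), Nefl (1.23e-08) and Nefm (6.36e-07). The others were Dmtn, Zic2, Pcdh20, Cldn10, Dock9, Sdr39u1, Ndrg2 and Lgi3. Mir124a-1hg and Cldn10 reached the level limit only through T14 and T10, so it partly fixed their order. Leaving out T8 left 8 of the 13 calls. Without the filter on low counts 13 of 286 members were called, 10 of them shared with the calls above. DESeq2 called 4 members as dispersion outliers, 2 of them among the 13. Tsc22d1 and Ktn1, where TUN alone stood low, were not called. In simulations it recovered 0% of genes lowered 2-fold or 4-fold in TUN, 24% of those lowered 8-fold and 44% at 16-fold.

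By the gap from the extreme library to its neighbour, divided by the range of all 4, TUN was low and apart (a ratio past Dixon's 95% value for 4 samples) for 11 members (3.85%), where 0.316% of all genes were. The region was chosen for low values in TUN, so this count describes the choice and supports nothing further. The genes were Gnpnat1, Ktn1, Wdfy2, Fzd3, R3hcc1, Hr, Xpo7, Tsc22d1, Dnajc15, Wbp4 and Mzt1, named after their values were seen. Hr, a corepressor of nuclear receptors, had 72.8 CPM in TUN, against 168 in T14, 158 in T10 and 167 in T8. Dnajc15, a mitochondrial chaperone gene, had 14.4 CPM in TUN, against 20.2, 20.8 and 20.2. TUN was high and apart for 0 members, where it was so for 0.623% of all genes.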

How the data were processed

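PolyA RNA of 4 mouse tumours was measured. The deposited values are whole-number read counts per gene, which the authors obtained from mm10 alignments. The submitters' processing notes name STAR and featureCounts, and the genes are those of GENCODE vM8. Neither tool's version nor its treatment of strand and multiply mapped reads is stated. No value printed here is scaled by the deposited merged exon length. Library totals were 21664889 counts for TUN, 23194257 for T14, 24369339 for T10 and 24155724 for T8. All 4 columns were used as tumours of 1 group with no replicate number, and 0 columns were left aside.

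Members and gene lists were chosen with earlier results of these data known. Membership used counts over column totals. All other CPM were scaled by TMM in edgeR 4.0.16 (R 4.3.3), over genes kept by filterByExpr (factors 1.03 for TUN, 0.971 for T14, 1.01 for T10 and 0.988 for T8). Log2 ratios used a prior count of 2. Ratios of TUN have no test, since the labels give 1 group. Variability was tested with an intercept-only edgeR fit at the trended dispersion, its residual deviance set against chi-square with 3 degrees of freedom and adjusted by Benjamini-Hochberg over 14266 genes. P-values measure only the spread between these libraries. On simulated data 2 of 14219 unchanged genes were called, and members shifted by -0.5 log2 in TUN gave a median of -0.46. Exact intervals at 95% cover counting error only. Symbols matched 46451 of 46946 genes. Exons of 75 members overlapped another gene with counts on either strand, and for 43 that gene had at least 10% of the member's counts.

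Named genes were Rb1, the extremes by ratio (10 each way), the 10 with most counts, the nearest 3 on each side of both limits, 5 members ranked first by variability and up to 6 genes per list. Other genes named were chosen after their values were seen. Alternatives were library size alone, DESeq2 1.42.0 scaling, TMM without chromosome 14, other prior counts, level and position limits, and leaving out each library. Some genes that the rule gives are not reported here.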

Additional observations from a re-analysis of the deposited data

Results flagged for a closer look

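The values below came from 1 library that stood apart from the other 3, by a ratio of gap to range past Dixon's 95% value for 4 samples. Chance gives about 1 such result in 20 groups of 4. Among the 72 genes the naming rule gave, 9 met it (12.5%), against 4.33% of all genes at mean CPM 5 or more and 8.39% of the members. Chance rates do not apply to the low values of TUN in the members, which were chosen for them. TUN was the low library for Tsc22d1 (ratio 0.978), Ktn1 (0.888), Mzt1 (0.835) and Grid1 (0.835), the last of which lies outside the boundary. T8 was the high library for Rec8 (0.959), Ipo5 (0.89), Tspan14 (0.839) and Tpt1 (0.83). Rec8 reached the mean of 5 CPM only through T8, so the gap of T8 there was fixed by that limit. T14 was the high library for Cbln3 (0.867) and for the erythroid marker sum (0.923). T8 was high and apart for 10 of the 286 members (3.5%), against 0.731% of all genes. Whether T8 stands apart depends also on the level of TUN, for which the members were chosen. This share therefore supports nothing further.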

How the results depend on the processing

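The median log2 ratio of the members in TUN, -0.61, was below 0 under every alternative tried. It was -0.56 with library size alone, -0.63 for members at mean CPM 20 or more and -0.63 for those beyond 50 Mb, shifts larger than the SD of 0.013 over the 3 pairwise medians. Leaving out T14, T10 or T8 gave -0.62 to -0.60, and the shifts without T10 and without T8 were also larger than this SD. The 3 pairwise medians share TUN, so their SD holds none of the variation of TUN itself. Over the same 286 members, library size, DESeq2 scaling and TMM without chromosome 14 gave 159 to 176 at -0.5 or less (173 reported) and 204 to 218 lowest in TUN (218 reported). Other limits changed the set, with 135 and 175 of 213 members at mean CPM 20, 203 and 249 of 343 at mean CPM 1, and 156 and 195 of 258 beyond 50 Mb. Without T14, T10 or T8 the counts were 161 to 186 and 224 to 235, lowest then meaning of 3 libraries. Rb1 had log2 ratios of -0.76 to -0.47. The goodness of fit called 13 members, and 8 to 9 with a library left out, of which 8 without T8. Without the filter on low counts it called 13, of which 10 were shared. DESeq2 1.42.0 called 4 members as dispersion outliers, 2 of them shared with the 13; the cause was not tested. No paired analysis was possible because the labels give 1 group and the columns carry no replicate number. Without TUN the ratios have no value. With 1 library of this kind no replicate check of its low level exists.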
